A study of Mus musculus with 12 samples.

Results

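The expression profile of Ifnb-/- cerebellar granule neurons (CGNs) given recombinant interferon beta (rIFN-β) was compared with that of Ifnb+/+ CGNs given the same cytokine. The comparison used 6 of the 12 arrays of the series, 3 labelled Ifnb-/- with IFN-b and 3 labelled Ifnb+/+ with IFN-b, and covered all 18193 genes that could be read. CGNs are glutamatergic cells of the cerebellum whose axons, the parallel fibers, contact Purkinje cells. All cultures were of strain B10.RIII, came from pups that the labels give as 7 days old, and were lysed after 3 days in culture. Both groups had 100 U/ml rIFN-β for 24 hr before lysis. The other 6 arrays are untreated cultures, 3 of each genotype. The knockout is present in every cell from the start of development, so neither group separates loss of the cytokine during culture from loss before it. Cultures were made in triplicate, and separate litters are not stated. The p-values therefore measure the spread between cultures, pooled over the treated and untreated groups, which may be technical. One array was hybridized per culture on an Affymetrix mouse genome design, and levels are log2 intensities. A difference of 1 on this scale is a doubling, and differences are given as Ifnb-/- minus Ifnb+/+, both with rIFN-β.

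Interferon beta is a type I interferon that cells secrete and that binds the receptor chains IFNAR1 and IFNAR2. The receptor kinases JAK1 and TYK2 then activate STAT2, which acts with IRF9 at the interferon-stimulated response element in the promoters of interferon-stimulated genes (ISGs). Many ISGs encode antiviral proteins or further parts of the pathway, such as IRF7, and low constant secretion of the cytokine is known to set the resting level of several of them. Adding rIFN-β therefore supplies the ligand that the knockout cells cannot make.

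Ifnb1 itself read 2.71, 2.71 and 2.56 in the Ifnb+/+ arrays with rIFN-β and 2.98, 3.06 and 2.80 in the Ifnb-/- arrays, close to the floor of the scale in both groups, so the labelled genotypes cannot be checked from it. The arrays did not group by genotype. Ifnb+/+ array 1 correlated best with Ifnb-/- array 1 (r = 0.994 across genes), Ifnb-/- array 2 correlated best with Ifnb+/+ array 3 (r = 0.991), and Ifnb-/- arrays 1 and 3 correlated with each other at 0.997. Ifnb+/+ array 1 thus resembled Ifnb-/- arrays 1 and 3, and Ifnb-/- array 2 resembled Ifnb+/+ arrays 2 and 3. Some marker lists followed this division in part. The median of 17 measured astrocyte markers, relative to each gene's mean over the 12 arrays, was -0.23, 0.15 and 0.56 in the 3 Ifnb+/+ arrays and -0.13, 0.75 and -0.10 in the Ifnb-/- arrays. That of 35 cell cycle genes was -0.09, -0.19 and 0.61 against -0.23, 0.64 and -0.16. Eif2s3y, a gene of the Y chromosome, read 2.82, 5.76 and 7.31 against 5.34, 7.11 and 5.32. The astrocyte and cell cycle lists were highest in Ifnb+/+ array 3 and Ifnb-/- array 2, and so was Eif2s3y, and their part in the results was not tested. Differences within the 2 sets of like arrays are therefore given beside results, first for the set with Ifnb+/+ array 1 and Ifnb-/- arrays 1 and 3, then for the other set. This choice was made after seeing the data. The 11 genes that passed had the same sign in both sets. That was fixed in advance, because their Ifnb-/- and Ifnb+/+ arrays with rIFN-β did not overlap. The medians of 16 of the 38 gene lists differed in sign between the sets.

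Under rIFN-β, Ifnb-/- CGNs differed from Ifnb+/+ CGNs in 11 genes at an adjusted p under 0.05 from limma, 0.0605% of those tested. One gene (0.0055%) was higher, Gabra6, and 10 (0.055%) were lower, namely Dtx3l, Tlr2, Cd69, Serping1, Ccl5, Oas1c, Ifi27l2a, Clec4n, Sncaip and Ndufs5. In all 11 the 3 Ifnb-/- arrays lay entirely on one side of the 3 Ifnb+/+ arrays, as 4.64% of all genes did above and 3.47% below them, and 9 differed by 2-fold or more. Without an adjustment, 557 genes (3.06%) were lower and 342 (1.88%) were higher with p under 0.05. With a change of at least 1.5-fold in addition, 312 genes (1.71%) were lower and 46 (0.253%) higher. The median difference of all genes was 0.03, the 5th to 95th percentiles were -0.33 to 0.29, and the median half-width of a gene's 95% interval was 0.33. The count depended on single arrays. Without Ifnb+/+ array 1, 203 genes passed, among them all of the 11. It was 0 without Ifnb-/- array 1 and without any one of 3 untreated arrays (Ifnb+/+ array 3, Ifnb-/- arrays 1 and 2), and 1 or 2 without Ifnb+/+ array 2 or 3, Ifnb-/- array 3 or untreated Ifnb-/- array 3. With only the 6 treated arrays in the fit, 0 genes passed, with 293 past 1.5-fold at unadjusted p. In cultures measured in bulk, less RNA per cell and fewer cells of a type cannot be told apart.

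**Figure D1:**
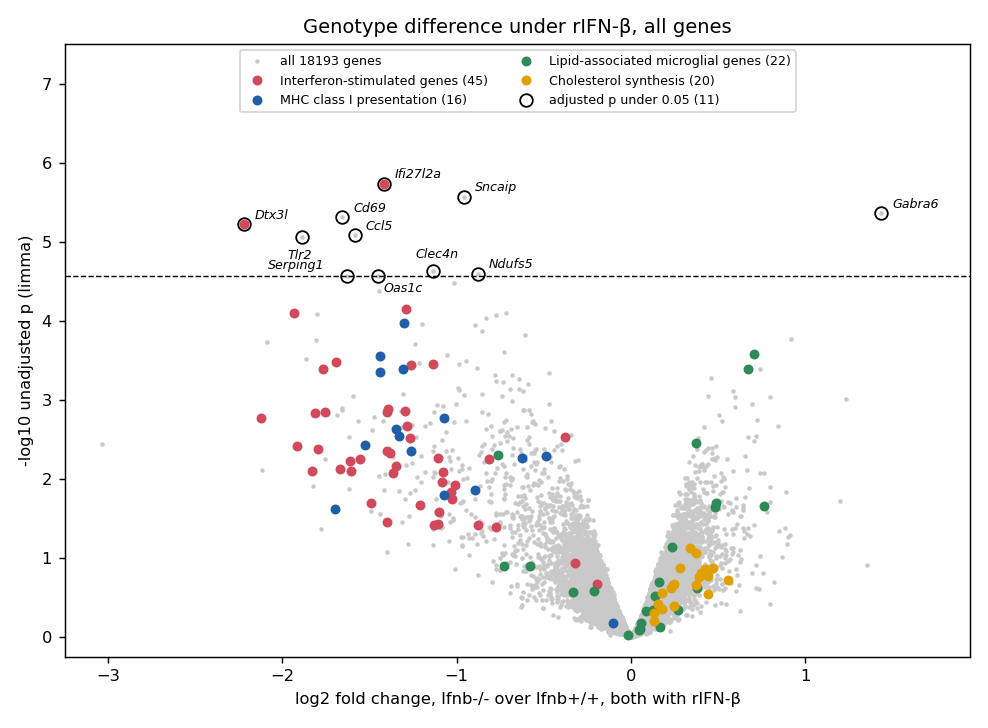
Each point is 1 of 18193 genes, with the log2 fold change of Ifnb-/- over Ifnb+/+ (both with rIFN-β) on the x axis and -log10 of the unadjusted limma p on the y axis, rings marking the 11 genes past an adjusted p of 0.05 and the dashed line their largest p. Interferon-stimulated and MHC class I genes lie to the left, mostly between 2-fold and 4-fold lower but under the dashed line, and Gabra6 is the only ringed gene on the right.

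Among the genes of the interferon response, Dtx3l was lowest relative to Ifnb+/+. It encodes an E3 ubiquitin ligase that works with PARP9 in the interferon response. Dtx3l read 9.12, 10.17 and 10.47 in the Ifnb+/+ arrays with rIFN-β and 7.47, 8.14 and 7.48 in the Ifnb-/- arrays. All Ifnb-/- values were under all Ifnb+/+ values. The log2 fold change was -2.22 (standard error 0.29, adjusted p = 0.0221), or 4.66-fold, and the other probe set of the gene gave -1.77. Within the like arrays it was -1.64 in the set with Ifnb+/+ array 1 and -2.18 in the set with Ifnb-/- array 2. In untreated cultures Dtx3l read between 4.37 and 4.84 in both genotypes.

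Oas1c is one of the mouse genes of the 2′-5′-oligoadenylate synthetase 1 family, whose active members make the messenger that switches on RNase L. It read 4.44, 5.25 and 5.50 in Ifnb+/+ and 3.57, 3.45 and 3.82 in Ifnb-/-, with no overlap. The log2 fold change was -1.45 (standard error 0.22, adjusted p = 0.0449), and within the like arrays it was -0.75 and -1.93. Its untreated values were 2.52 to 2.86 in Ifnb+/+ and 2.69 to 2.82 in Ifnb-/-. Oas1a, an active synthetase of the same family, read 7.33, 8.44 and 9.09 against 6.31, 6.32 and 6.44. Those arrays did not overlap either, but its difference of -1.93 did not pass (adjusted p = 0.0856). Because members of this family are similar in sequence, signal shared between their probe sets cannot be told apart here.

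Ifi27l2a, an interferon-induced gene of a small family of hydrophobic proteins, stood apart from the others. It read 5.69, 5.84 and 5.63 in Ifnb+/+ with rIFN-β and 4.32, 4.02 and 4.56 in Ifnb-/- with rIFN-β. In untreated cultures it read 5.79, 5.96 and 5.55 in Ifnb+/+ and 4.14, 4.00 and 4.46 in Ifnb-/-. The Ifnb-/- arrays were below the Ifnb+/+ arrays in both conditions, and the effect of rIFN-β was -0.05 in Ifnb+/+ and 0.10 in Ifnb-/-. The log2 fold change was -1.42 (standard error 0.17, adjusted p = 0.0221) with rIFN-β and -1.57 without. The difference with rIFN-β was -1.24 and -1.72 within the like arrays. The difference of these differences was 0.15, with an adjusted p of 0.74.

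Ccl5, a chemokine that attracts T cells and monocytes, read 6.66, 6.77 and 6.57 in Ifnb+/+ and 5.18, 4.49 and 5.58 in Ifnb-/-. The Ifnb-/- arrays were all lower, with array 2 the lowest, and the log2 fold change was -1.58 (standard error 0.22, adjusted p = 0.0226). Untreated, its difference was -1.12, which did not pass (adjusted p = 0.0788). Ccl5 differed by -1.28 and -2.18 within the like arrays. Cd69, an early activation antigen of leukocytes and itself induced by interferon, read 6.33, 7.14 and 6.77 against 5.09, 4.90 and 5.27. It differed by -1.66 (standard error 0.21, adjusted p = 0.0221) with no overlap, while untreated values lay between 3.58 and 4.29 in both genotypes. Its like arrays gave -1.15 and -2.05.

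Serping1, the gene of the C1 inhibitor of complement, was raised by rIFN-β in Ifnb+/+ arrays. It read 8.36, 9.38 and 9.64 in Ifnb+/+ and 7.57, 7.34 and 7.58 in Ifnb-/-. The Ifnb-/- values lay within the range of 7.32 to 7.78 that untreated cultures of both genotypes gave. The log2 fold change between the treated genotypes was -1.63 (standard error 0.25, adjusted p = 0.0449), and Ifnb+/+ array 1 was the closest to the Ifnb-/- arrays, with a difference of -0.78 in its set against -2.17 in the other. The effect of rIFN-β was 1.68 in Ifnb+/+ (adjusted p = 0.0029) and -0.23 in Ifnb-/- (adjusted p = 0.685). The difference between these effects, -1.90, did not pass (adjusted p = 0.24).

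Tlr2, the receptor for bacterial lipopeptides that signals through MyD88 and NF-κB, read 5.62, 6.27 and 7.06 in Ifnb+/+ and 4.43, 4.48 and 4.38 in Ifnb-/-. The 3 Ifnb-/- arrays were close together and all lower. The log2 fold change was -1.89 (standard error 0.26, adjusted p = 0.0226), or 3.71-fold, and -1.22 and -2.18 within the like arrays. Untreated values were 5.43 to 5.58 in Ifnb+/+ and 5.14 to 5.29 in Ifnb-/-, between those of the treated groups. Clec4n, which encodes the C-type lectin dectin-2 of myeloid cells, read 6.57, 6.33 and 6.55 against 5.07, 5.56 and 5.41. Its difference was -1.14 (standard error 0.17, adjusted p = 0.0449), and untreated it was 0.43 (adjusted p = 0.21). In Ifnb-/- cultures Clec4n fell by 1.46 with rIFN-β (adjusted p = 0.00104), and in Ifnb+/+ cultures it read 0.10 higher (adjusted p = 0.792). Clec4n differed by -1.33 and -0.88 within the like arrays.

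Cd69, Ccl5, Tlr2 and Clec4n are known from leukocytes, so microglial markers are given beside them. Of 26 markers 25 were measured. Their summed linear intensity was, with rIFN-β, 2728 to 3580 in Ifnb+/+ arrays and 2846 to 3231 in Ifnb-/- arrays. These ranges overlapped. Of the 25, 5 (20%, against 3.06% of all genes) were lower and 1 (4%, against 1.88%) was higher with an unadjusted p under 0.05, none passed the adjusted threshold, and their median difference was -0.12, or -0.08 and -0.18 within the like arrays. Ptprc, the leukocyte antigen CD45, had the largest difference, -1.13 (unadjusted p = 0.0429). The others with an unadjusted p under 0.05 were Aif1 (-0.68), Ly86 (-0.62), Laptm5 (-0.41), Csf1r (-0.35) and Cd68 (0.53). Cx3cr1, Tmem119 and P2ry12 differed by 0.32, 0.14 and -0.37, none at an unadjusted p under 0.05. Of the 25 differences 16 were negative and 9 positive. The part of microglia in these 4 differences was not tested.

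Gabra6, the α6 subunit of the GABA-A receptor and a marker of mature granule neurons, was the 1 gene that was higher. It read 4.94, 5.61 and 5.01 in Ifnb+/+ with rIFN-β and 6.83, 6.29 and 6.75 in Ifnb-/-. The lowest Ifnb-/- array was above the highest Ifnb+/+ array. The log2 fold change was 1.44 (standard error 0.18, adjusted p = 0.0221), or 2.71-fold, and the other probe set gave 1.39. It was 1.85 and 0.98 in the 2 sets of like arrays. Untreated, Gabra6 read 5.45 to 5.48 in Ifnb+/+ and 6.10 to 6.33 in Ifnb-/-, a difference of 0.72 that did not pass (adjusted p = 0.147).

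Sncaip, which encodes synphilin-1, a binding partner of α-synuclein, read 6.13, 6.38 and 6.48 against 5.49, 5.38 and 5.24. The groups did not overlap, and the log2 fold change was -0.96 (standard error 0.12, adjusted p = 0.0221), with -0.94 from its other probe set and -0.77 and -1.05 within the like arrays. Untreated it was -0.29 (adjusted p = 0.211). Ndufs5, which encodes an accessory subunit of respiratory complex I, read 9.23, 9.54 and 9.41 against 8.54, 8.30 and 8.72. Its difference was -0.88 (standard error 0.13, adjusted p = 0.0449), and in untreated cultures it was -0.92 (adjusted p = 0.0263). Its like arrays gave -0.61 and -1.18. Ndufs5 lies on chromosome 4, as does the deleted Ifnb1, and the other 10 genes do not. Of genes with a known chromosome, 6.03% lie on chromosome 4, against 5 of the 21 genes that passed between the untreated genotypes. Whether DNA that came with the deleted allele bears on these genes was not tested.

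**Figure D2:**
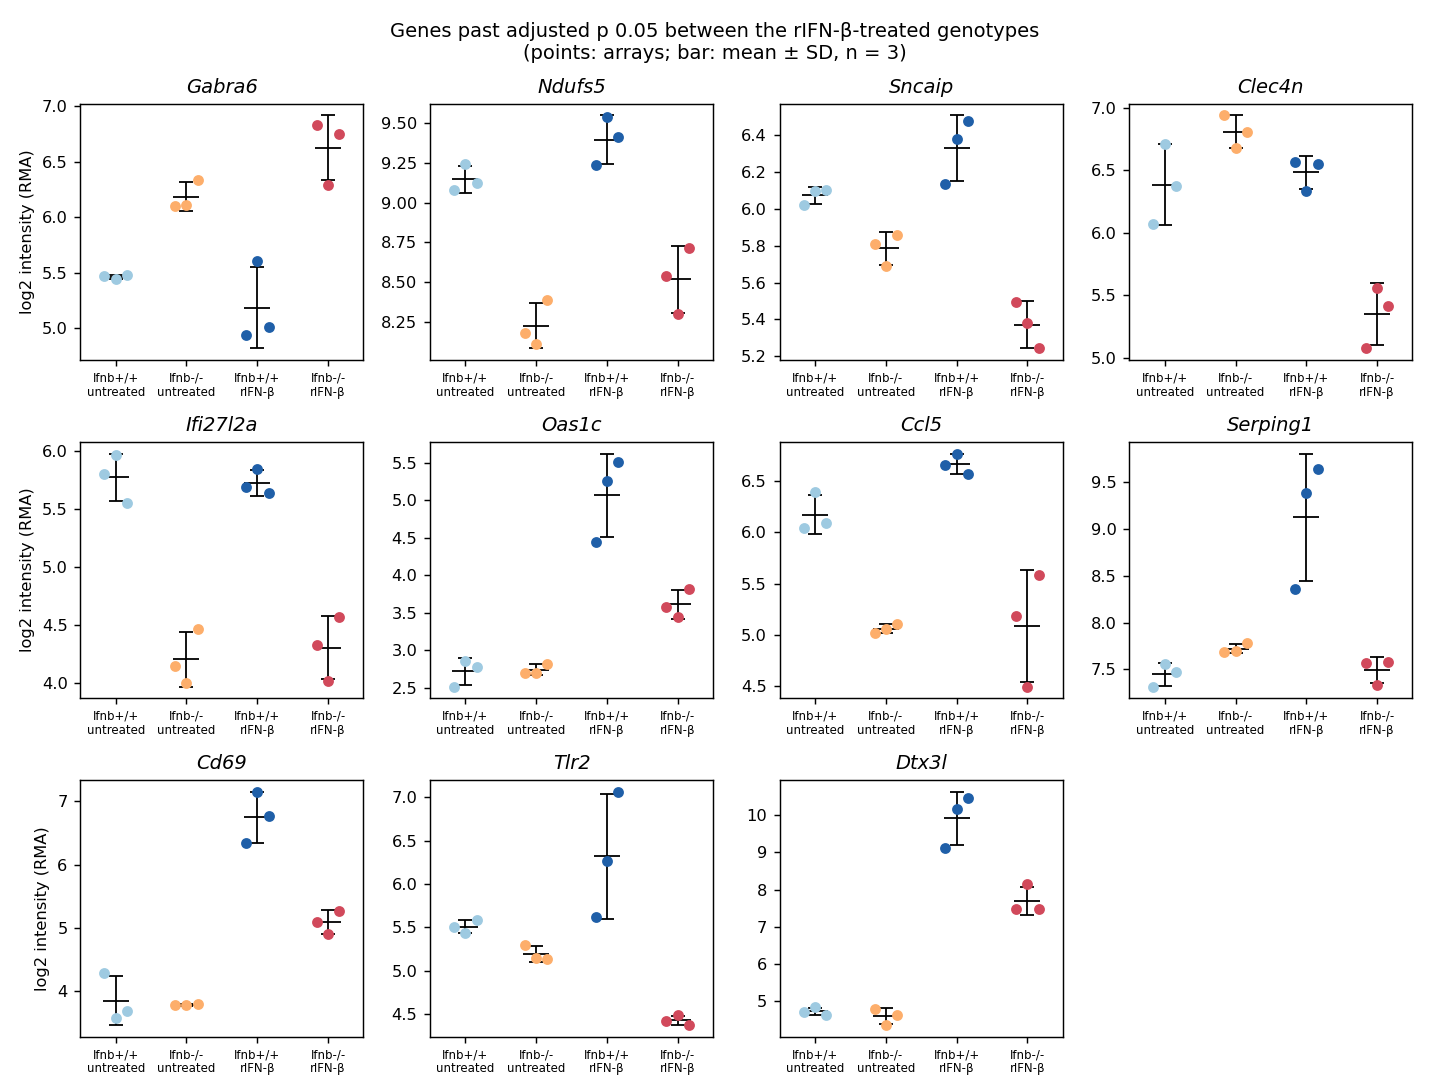
Log2 intensity of the 11 genes past an adjusted p of 0.05 between the treated genotypes in every array, with 1 panel per gene, 3 points per group and the mean ± SD as bars. Ifi27l2a and Ndufs5 are lower in Ifnb-/- with and without rIFN-β, whereas Dtx3l, Oas1c and Cd69 read alike in the untreated genotypes and apart in the treated ones.

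ISGs had negative differences throughout, although most single genes did not pass the adjusted threshold. Of 50 genes 45 were measured, all 45 had a negative difference, and 43 (95.6%) were lower at an unadjusted p under 0.05, against 3.06% of all genes. In 13 the Ifnb-/- arrays lay under all Ifnb+/+ arrays, against the 3.47% of all genes. Dtx3l and Ifi27l2a passed the adjusted threshold. The median difference was -1.35, with a range of -2.22 to -0.20. Relative to each gene's mean over the 12 arrays, the list's median was 1.32, 2.66 and 3.30 in the Ifnb+/+ arrays and 0.64, 1.56 and 0.61 in the Ifnb-/- arrays. Ifnb-/- array 2 was thus above Ifnb+/+ array 1. Within the like arrays the median difference was -0.60 with 44 of 45 genes negative, and -1.26 with all 45 negative, where 44.5% and 50.9% of all genes were negative. Without Ifnb+/+ array 1, 35 of the 45 passed the adjusted threshold as lower, as did 195 of all 18193 genes, and the median was -1.82. Of all omissions of 1 array this one gave the most genes, 203, and list counts were not made for the others. The list was lowest in that array among the Ifnb+/+ arrays, so leaving it out widens the difference. The counts without this array in the paragraphs below have the same limit. Over the alternatives described below, the ISG median ran from -1.82 to -0.96. Untreated, the ISG median difference was -0.41, and 11 of the 45 were lower at an unadjusted p under 0.05, against 12.8% of all genes.

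Both genotypes responded. The ISG median effect of rIFN-β was 4.01 in Ifnb+/+, where 41 genes were higher at an adjusted p under 0.05 (1.78% of all genes), and 2.98 in Ifnb-/-, where 33 were (0.929% of all genes). These effects share arrays with the comparison of the treated genotypes. Usp18, which encodes a protease that removes ISG15 and damps receptor signaling, rose by 6.81 in Ifnb+/+ and by 6.78 in Ifnb-/-. With rIFN-β it read 10.67, 11.22 and 11.79 against 9.57, 9.54 and 9.48, a difference of -1.69 (adjusted p = 0.165) without overlap. Untreated, it read 3.52 to 5.09 in Ifnb+/+ and 2.62 to 2.94 in Ifnb-/-, a difference of -1.67 (adjusted p = 0.0991). Ifit1, which binds viral RNA that lacks the cap of host mRNA, read 9.85, 11.09 and 11.44 against 9.36, 10.26 and 9.53. Ifnb-/- array 2 was above Ifnb+/+ array 1, and the difference of -1.08 did not pass (adjusted p = 0.564). Ifit1 rose by 7.00 in Ifnb+/+ and by 6.96 in Ifnb-/-, and untreated it differed by -1.05 (adjusted p = 0.185). Mx1, an antiviral GTPase, read 7.42, 9.13 and 9.97 against 7.02, 7.94 and 6.75, with a difference of -1.61 (adjusted p = 0.562). Mx1 rose by 5.81 in Ifnb+/+ and by 4.54 in Ifnb-/-, and untreated it differed by -0.34 (adjusted p = 0.713).

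The cytosolic sensor of viral RNA RIG-I (Ddx58) read 8.39, 9.31 and 9.94 against 7.16, 8.13 and 7.06, without overlap, and differed by -1.77 (adjusted p = 0.166). Nmi, which encodes a protein that binds STATs, read 7.57, 8.94 and 9.66 against 6.39, 7.10 and 6.41. The groups did not overlap, and the difference was -2.09 (adjusted p = 0.12), or 4.25-fold. Irf7, the factor that amplifies type I interferon production, read 7.04, 8.54 and 9.03 against 6.37, 6.47 and 6.51 and differed by -1.75 (adjusted p = 0.298). In each of these genes the Ifnb+/+ arrays spread over more than 1 log2 unit, with array 1 the lowest.

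The receptor and its kinases differed less. Of 18 measured genes of interferon signaling, 6 (33.3%, against 3.06% of all genes) were lower at an unadjusted p under 0.05, none higher, and none passed. Without Ifnb+/+ array 1, 4 of the 18 passed, all lower, against 195 of all 18193 genes. The median difference was -0.25, and -0.24 and -0.10 within the like arrays. Ifnar1 read 7.17, 7.32 and 7.40 against 7.02, 7.31 and 7.05, a difference of -0.17, and Ifnar2 read 6.92, 7.19 and 7.08 against 6.64, 6.66 and 6.78, a difference of -0.37 (adjusted p = 0.4). The Ifnar2 arrays did not overlap, and those of Ifnar1 did. The kinase genes Jak1 and Tyk2 differed by 0.03 and -0.08. Of the factors that carry the signal to DNA, Stat2 differed by -1.11 (adjusted p = 0.483) and Irf9 by -0.32. Irf9 read 8.68, 8.33 and 8.65 against 8.44, 8.13 and 8.14, with overlap, although it was 3.16 above the untreated level in Ifnb+/+ and 3.52 above it in Ifnb-/-. Of the negative regulators, Socs1 differed by -0.79 (adjusted p = 0.38) and Socs3 by -0.16.

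**Figure D3:**
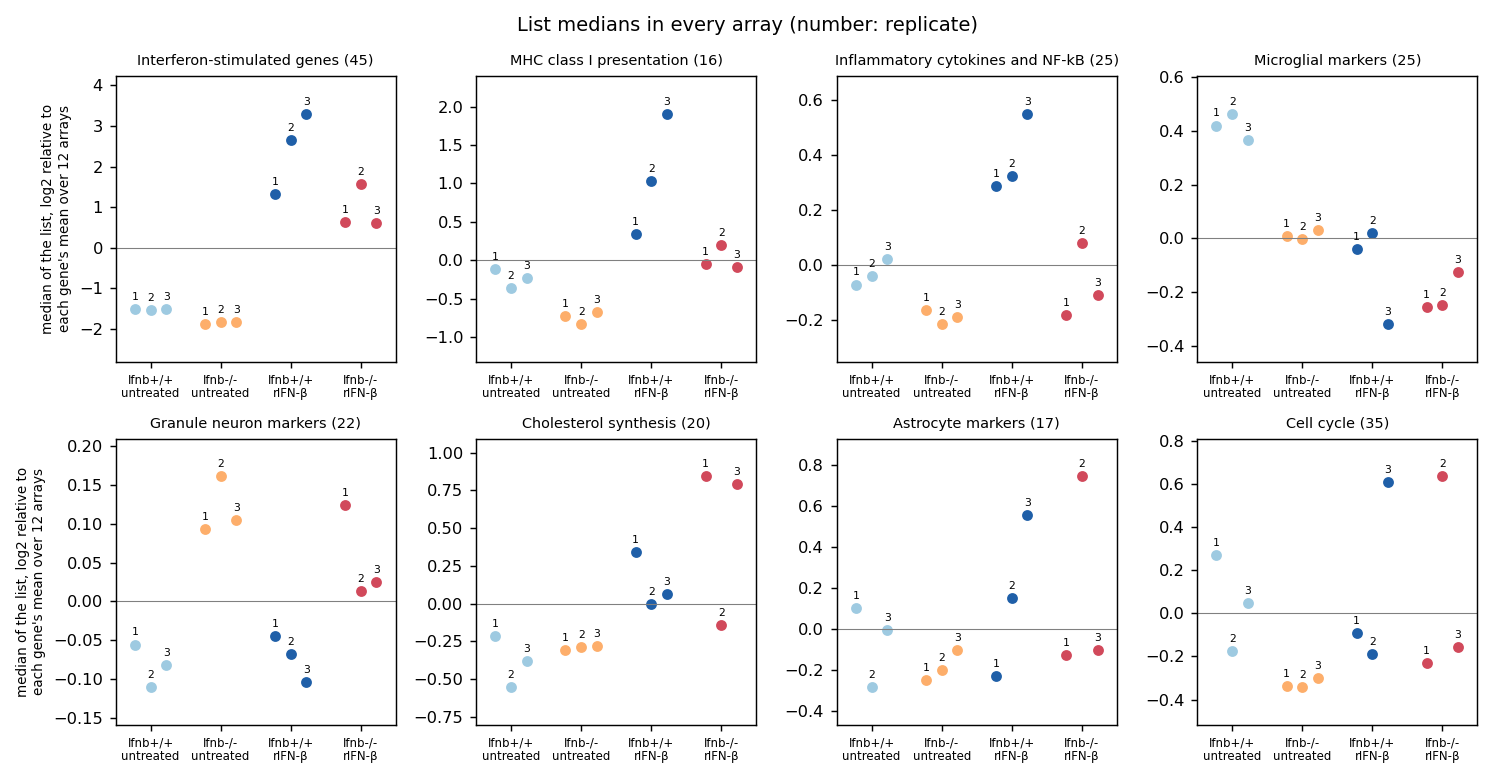
Median of 8 gene lists in every array (y axis, log2 relative to each gene's mean over the 12 arrays), with points numbered by replicate within the 4 groups on the x axis. With rIFN-β, the ISG median spans 1.32 to 3.30 in Ifnb+/+ arrays and 0.61 to 1.56 in Ifnb-/- arrays, and astrocyte and cell cycle medians are high in Ifnb+/+ array 3 and Ifnb-/- array 2.

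Promoters were searched for the core of the interferon-stimulated response element, GAAANNGAAA, and for a core of an NF-κB site, GGGANNNNCC, on both strands of a window from 250 bases before to 50 after the start of each RefSeq gene. Matches may overlap each other. RefSeq windows were found for 14452 genes, and 524 of these (3.63%) held the response element core. It was present in 18 of 32 ISGs with a window, in 55 of the 243 genes with a window that were lower by at least 1.5-fold, and in 0 of the 33 that were higher. The NF-κB core was present in 28.4% of all windows, in 82 of the same 243 genes and in 10 of the 33. A window was found for 5 of the 11 genes past the adjusted threshold, and among these Oas1c held the response element core, while Gabra6, Oas1c and Tlr2 held the NF-κB core. A match is a description of the letters and not of binding. The stretches of 180 bases before the start are shown for Oas1c, Oas1a and Ifit1, as genes of the response with matches wholly before the start. They are printed on the gene's own strand, with response element matches in capitals. In Oas1a the capitals read as the core, and in Oas1c and Ifit1 as its reverse complement. Coordinates are of GRCm38.p6: Oas1c at chr5:120812515-120812694 (minus strand), Oas1a at chr5:120907526-120907705 (minus strand) and Ifit1 at chr19:34640709-34640888 (plus strand).
Oas1c: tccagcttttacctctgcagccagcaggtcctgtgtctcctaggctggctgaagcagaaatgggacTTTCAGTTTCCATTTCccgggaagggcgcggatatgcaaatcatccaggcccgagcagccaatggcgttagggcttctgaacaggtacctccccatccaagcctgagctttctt
Oas1a: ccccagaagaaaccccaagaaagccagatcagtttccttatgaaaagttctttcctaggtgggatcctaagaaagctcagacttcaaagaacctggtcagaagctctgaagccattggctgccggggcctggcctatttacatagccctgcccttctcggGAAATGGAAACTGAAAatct
Ifit1: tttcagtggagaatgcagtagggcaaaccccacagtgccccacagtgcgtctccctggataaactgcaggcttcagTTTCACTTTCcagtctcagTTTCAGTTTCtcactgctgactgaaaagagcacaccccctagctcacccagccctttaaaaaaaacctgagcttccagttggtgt
The 2 overlapping matches of Oas1c began 114 and 108 bases before the start and those of Oas1a 20 and 14 bases before it, whereas the 2 matches of Ifit1, at 104 and 85 bases, were separate.

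MHC class I molecules present peptides of the cytosol at the cell surface, and their genes had differences near those of the ISGs. Of 20 genes 16 were measured, and 14 (87.5%, against 3.06% of all genes) were lower at an unadjusted p under 0.05. In 8 the Ifnb-/- arrays lay under all Ifnb+/+ arrays, against 3.47% of all genes. None passed the adjusted threshold, and the median difference was -1.28. H2-D1 and H2-K1, both classical heavy chain genes, are highly similar to other genes of the locus, so signal from these can be shared. H2-D1 read 9.10, 9.36 and 10.27 against 8.12, 8.48 and 8.21 and differed by -1.30 (adjusted p = 0.0892). H2-K1 read 9.36, 9.97 and 10.76 against 8.39, 9.03 and 8.35 and differed by -1.44 (adjusted p = 0.153). B2m, the light chain that both need, read 10.64, 11.11 and 11.83 against 9.74, 10.20 and 9.72 and differed by -1.31 (adjusted p = 0.166). In all 3 genes every Ifnb-/- array was below every Ifnb+/+ array. Untreated, H2-D1, H2-K1 and B2m differed by -0.86, -1.26 and -0.33. The list's untreated median was -0.51, and 5 of the 16 were lower at an unadjusted p under 0.05, against 12.8% of all genes.

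The peptide transporter genes Tap1 and Tap2 differed by -1.33 and -1.35, the immunoproteasome genes Psmb8 and Psmb9 by -1.26 and -1.53, and Nlrc5, the transactivator of the class, by -1.70, all with an unadjusted p under 0.05. The general chaperone genes Calr and Pdia3, which serve other proteins as well, differed by 0.06 and -0.10. The 31 genes of a separate list of proteasome subunits gave 0 lower and 0 higher at an unadjusted p under 0.05. The class I median was 0.34, 1.03 and 1.91 in the Ifnb+/+ arrays and -0.05, 0.20 and -0.09 in the Ifnb-/- arrays, without overlap. Within the like arrays the median differences were -0.48 and -1.30. Without Ifnb+/+ array 1, 11 of the 16 passed the adjusted threshold as lower, against 195 of all 18193 genes. Over the alternatives the class I median ran from -1.56 to -0.83, the first of these being without that array.

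Chemokine and inflammatory genes differed in part. Of 20 chemokine genes 9 (45%, against 3.06% of all genes) were lower at an unadjusted p under 0.05, none was higher, Ccl5 passed, and the median difference was -0.33. Cxcl10, Cxcl9 and Cxcl11, which share a receptor on T cells, differed by -0.87, -1.09 and -1.49. Cxcl10 read 11.48, 12.01 and 12.70 against 10.90, 11.80 and 10.89, with Ifnb-/- array 2 above Ifnb+/+ array 1. Ccl2, which attracts monocytes, differed by -1.11 without overlap (adjusted p = 0.282), and Ccl4, Cxcl12 and Cx3cl1 by -0.07, -0.10 and -0.09. The chemokine medians within the like arrays were -0.27 and -0.41. Without Ifnb+/+ array 1, 5 of the 20 passed, all lower, against 195 of all 18193 genes, and the median was -0.53. Over the alternatives the chemokine median ran from -0.53 to -0.21, and untreated it was -0.26.

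Of 25 inflammatory and NF-κB genes 12 (48%, against 3.06% of all genes) were lower at an unadjusted p under 0.05, none was higher, Tlr2 passed, and the median difference was -0.51. Within the like arrays it was -0.46 and -0.40. Without Ifnb+/+ array 1 it was -0.57 and 5 of the 25 passed, all lower, against 195 of all 18193 genes. Over the alternatives this median ran from -0.62 to -0.37, and untreated it was -0.17. Il6, which encodes the cytokine interleukin 6, read 4.21, 5.27 and 6.11 against 3.70, 3.26 and 3.22. The groups did not overlap, and the difference was -1.81 (adjusted p = 0.12), while all untreated cultures read between 2.43 and 2.61. Nfkbia and Tnfaip3, both feedback inhibitors of NF-κB, differed by -0.62 and -0.50 and Icam1 by -0.64, all with an unadjusted p under 0.05. Rela, Nfkb2, Tnf and Il1b differed by -0.06, -0.03, -0.31 and -0.14, none with an unadjusted p under 0.05. For Tlr2 and Il6 the stretches of 180 bases before the start are shown as the genes of this list with the widest differences, with NF-κB core matches in capitals: Tlr2 at chr3:83841609-83841788 (minus strand) and Il6 at chr5:30012934-30013113 (plus strand), both of GRCm38.p6.
Tlr2: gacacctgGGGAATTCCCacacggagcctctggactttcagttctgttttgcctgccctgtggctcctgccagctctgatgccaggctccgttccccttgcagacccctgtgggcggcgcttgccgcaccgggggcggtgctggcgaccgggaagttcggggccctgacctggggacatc
Il6: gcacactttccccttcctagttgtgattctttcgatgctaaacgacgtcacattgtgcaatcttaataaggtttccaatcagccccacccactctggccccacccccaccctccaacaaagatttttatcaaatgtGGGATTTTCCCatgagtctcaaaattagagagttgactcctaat
The match in Tlr2 began 172 bases before the start, and another, which runs past the start, began 8 bases before it. The 2 overlapping matches in Il6 began 44 and 43 bases before it.

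**Figure D4:**
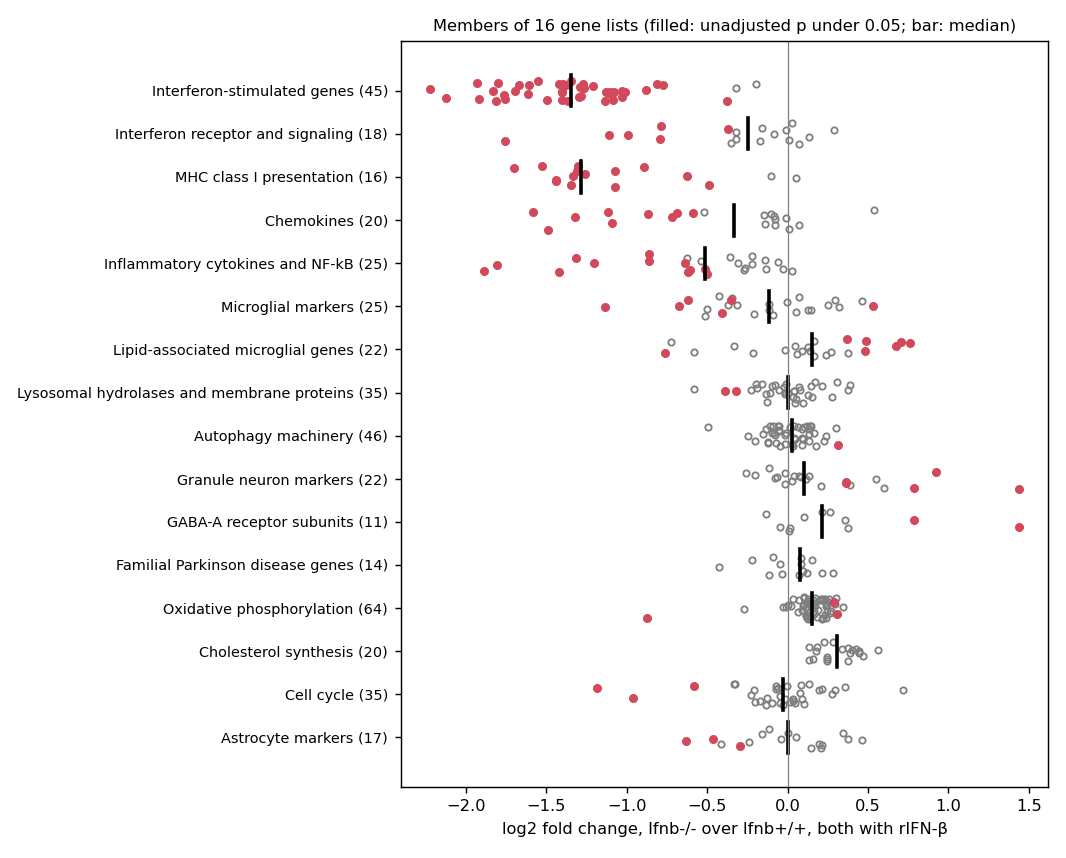
Log2 fold change of Ifnb-/- over Ifnb+/+, both with rIFN-β (x axis), for every measured member of 16 gene lists (rows), filled where the unadjusted p was under 0.05, with the list's median as a bar. The ISG and MHC class I medians lie at -1.35 and -1.28, the cholesterol synthesis median at 0.31, and most others near 0.

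The neuronal gene lists of this paragraph had medians between 0.01 and 0.22. The lists of granule cell progenitors and of interneuron markers, given further below, had -0.21 and -0.15. Of 22 measured granule neuron markers 5 (22.7%, against 1.88% of all genes) were higher with an unadjusted p under 0.05, none was lower, Gabra6 was the one that passed, and the median difference was 0.10, or 0.22 and 0.01 within the like arrays. Without Ifnb+/+ array 1, 2 of the 22 passed as higher, against 8 of all 18193 genes. Cbln3, a cerebellin secreted by granule neurons, read 4.22, 3.81 and 3.54 against 4.75, 4.61 and 4.98, a difference of 0.92 (adjusted p = 0.118) without overlap, and 0.20 from its other probe set. Of 11 GABA-A subunits 2 (18.2%) were higher, and the median was 0.22, with 0.60 and 0.08 within the like arrays. Gabrd differed by 0.78 and the other 9 measured beside Gabra6 and Gabrd by -0.14 to 0.38, none of these 9 at an unadjusted p under 0.05. The transcription factor genes Neurod1, Pax6 and Zic1 differed by -0.11, -0.01 and 0.04. The general markers Rbfox3 and Reln differed by -0.20 and -0.02. Glutamate receptors and voltage-gated channels had 0 of 21 and 0 of 31 genes at an unadjusted p under 0.05, with medians of 0.01 and 0.12. The 53 axon guidance and neurite genes gave 2 higher and 1 lower, the 33 synaptic vesicle genes 2 higher and the 28 neurotrophin signaling genes 2 higher and 2 lower, with medians from 0.01 to 0.10.

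Gene lists of Parkinson disease and of protein degradation had medians near 0. Counts here and in the next paragraphs are at an unadjusted p under 0.05, where 3.06% of all genes were lower and 1.88% higher. The 14 measured genes of familial Parkinson disease gave none and a median of 0.08. Of 46 autophagy genes 1 was higher, with a median of 0.03. The cargo receptor gene Sqstm1 differed by 0.03, the autophagosome gene Map1lc3b by -0.01 and Rab7, which acts in the fusion of autophagosomes with lysosomes, by 0.04. Of 35 lysosomal genes 2 were lower, namely Scarb2 (-0.39) and Grn (-0.32), and the median was 0.00. Of 13 cathepsins 1 was higher and 2 lower. Ctsc, a cathepsin that activates serine proteases of leukocytes, differed by -1.25 without overlap (adjusted p = 0.339), and its 3 probe sets ranged from -1.25 to 0.02. Of 31 genes of mTOR signaling 1 was higher and 3 lower, and Rragd, a GTPase gene of amino acid sensing, differed by -0.89 (adjusted p = 0.0892) and by -0.81 untreated. The 30 dopaminergic synapse genes gave 1 higher and 2 lower. None of these genes passed the adjusted threshold.

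Cholesterol synthesis genes were all above 0, but this did not hold within the like arrays. All 20 measured genes had a positive difference, none with an unadjusted p under 0.05, and a median of 0.31 from 0.13 (Insig1) to 0.56 (Fdps). The list's median was 0.84 and 0.79 in Ifnb-/- arrays 1 and 3 but -0.14 in Ifnb-/- array 2, against 0.34, 0.00 and 0.06 in the Ifnb+/+ arrays. Within the set of Ifnb+/+ array 1 and Ifnb-/- arrays 1 and 3 the median difference was 0.47, and within the other set it was -0.16. Oxidative phosphorylation genes had 60 of 64 positive differences and a median of 0.15. Those medians were 0.21 and -0.03 within the like arrays, so the shift was likewise present in one set. In this list 2 genes were higher and Ndufs5 was lower. Of 35 cell cycle genes 3 (8.57%, against 3.06% of all genes) were lower. Their median was -0.03, and -0.14 and 0.47 within the like arrays, of opposite sign. Of 38 apoptosis genes 2 (5.26%, against 1.88%) were higher and 7 (18.4%, against 3.06%) lower. Among the latter Birc3, an inhibitor of apoptosis, differed by -1.05 without overlap (adjusted p = 0.153). Bmf, a pro-apoptotic member of the BCL2 family, differed by 0.59 without overlap (adjusted p = 0.238), and its 3 probe sets ranged from -0.24 to 0.59.

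Of the remaining lists, 4 of 14 complement and Fc receptor genes (28.6%, against 3.06% of all genes) were lower with a median of -0.03, Serping1 among them. Of 30 granule cell progenitor and neurogenesis genes 3 (10%) were lower, with a median of -0.21. Both medians turned within the like arrays, being -0.28 and 0.19 for complement and Fc receptor genes and -0.24 and 0.08 for progenitor genes. The stress response (0 higher, 2 lower of 26), immediate-early (1 and 1 of 24) and ribosomal protein lists (1 and 1 of 34) had medians of 0.00, 0.16 and 0.01, and the proteasome median was 0.06. Markers of other cells gave medians of 0.00 for astrocytes (3 of 17 lower), -0.01 for oligodendrocytes (1 of 15 lower), -0.03 for endothelium (1 of 13 lower), -0.08 for meningeal fibroblasts and pericytes (0 of 19), 0.20 for Purkinje cells (1 of 7 higher), -0.15 for interneurons (1 of 10 lower), and -0.11 for erythroid cells (0 of 5). Of the genes outside the lists, Mgp, an inhibitor of calcification, read 6.15, 5.05 and 6.29 against 7.14, 6.73 and 7.34, a difference of 1.24 (adjusted p = 0.261) without overlap. Actb differed by 0.00.

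The widest differences without overlap included other genes that did not pass. On the lower side were Slc15a2, the peptide transporter PEPT2, at -1.75 (adjusted p = 0.486) and Trim21, a ubiquitin ligase that binds antibodies, at -1.66 (adjusted p = 0.297). On the higher side Slf1 differed by 1.20, Mpp7 by 0.89, Thrsp by 0.85, Cracdl by 0.80, Loxl1 by 0.80, Neb by 0.73 and Atoh7 by 0.71, with adjusted p between 0.32 and 0.791. Loxl1, which encodes an enzyme that crosslinks elastin, read 5.08, 5.03 and 5.22 against 5.96, 5.79 and 5.97, and untreated it differed by -1.10. Of these 7, Slf1 and Mpp7 rested most on 1 set of like arrays, with 0.14 and 2.08 for Slf1 and 0.39 and 1.83 for Mpp7.

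The genotype difference under rIFN-β was set beside that of the untreated cultures, which use the other 6 arrays but share the variance estimate. Of the 11 genes that passed with rIFN-β, 8 had the same sign untreated, 5 of them at an unadjusted p under 0.05, and Ifi27l2a and Ndufs5 passed in both. Of the 21 that passed untreated, 13 had the same sign with rIFN-β, 7 of them at an unadjusted p under 0.05. Over all genes 39.3% had the same sign, 65.5% were below 0 untreated against 43.1% with rIFN-β, untreated genes at an unadjusted p under 0.05 were 12.8% lower and 8.4% higher, and the correlation across genes was -0.13. Fcgr1, an Fc receptor gene of myeloid cells, read 7.00, 7.01 and 7.03 against 6.46, 6.36 and 6.57 with rIFN-β, a difference of -0.55, and differed by -1.30 untreated. Snapc3, a chromosome 4 gene of small nuclear RNA transcription, differed by 0.74 with rIFN-β and 1.22 untreated, and Tmem69, also on chromosome 4, by -0.73 and -0.93. Their probe sets disagreed. The 4 of Snapc3 gave 0.74, 0.65, -0.13 and -1.44 with rIFN-β, and the 4 of Tmem69 gave -0.73, -0.43, 0.00 and 0.11. Hmox1 and Plin2, which passed untreated with -0.95 and -0.94, differed by -0.10 and 0.06 with rIFN-β.

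The genotype difference itself differed between treated and untreated cultures in 4 genes at an adjusted p under 0.05, Trem2, Adam8, Ctsd and Slc37a2, which is 0.022% of genes tested. That number ran from 0 to 1237 when 1 array was left out, the highest without untreated Ifnb+/+ array 2, and 61 without Ifnb+/+ array 1 with rIFN-β. All 4 are on the list of 24 lipid-associated microglial genes, of which 22 were measured. That list was compiled with earlier results of these arrays known and supports nothing by itself. Trem2, a lipid receptor of microglia, read 5.19, 4.95 and 5.39 against 5.70, 5.93 and 6.01 with rIFN-β, and 6.79, 6.75 and 6.49 against 5.75, 5.54 and 5.67 untreated. The Ifnb-/- arrays were all above with rIFN-β and all below without it. The difference was 0.71 with rIFN-β (adjusted p = 0.153) and -1.03 without, and these 2 differed by 1.73 (adjusted p = 0.012). A second, dimmer probe set of Trem2 gave -0.09 with rIFN-β. Adam8, a metalloprotease gene, differed by 0.67 and -1.07, and Ctsd, a protease gene of lysosomes, by 0.37 and -0.70. Ctsd read 9.63, 9.40 and 9.44 against 9.76, 9.92 and 9.90 with rIFN-β and was lower by that margin of 0.70 in untreated Ifnb-/-. Within the like arrays the difference with rIFN-β was 0.67 and 0.76 for Trem2, 0.42 and 0.75 for Adam8, 0.20 and 0.50 for Ctsd and 0.38 and 0.28 for Slc37a2. Over the whole list, with rIFN-β, 6 genes (27.3%, against 1.88% of all genes) were higher and 1 was lower by an unadjusted p under 0.05, and the median was 0.15, against -0.38 untreated. Within the like arrays the list's median with rIFN-β was 0.02 and 0.31, so the shift lay mostly in the second set. The 25 general microglial markers had a median difference of -0.30 untreated, where their sums did not overlap, and of -0.12 with rIFN-β, where they did. The part of microglia in the 4 changes was not tested.

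**Figure D5:**
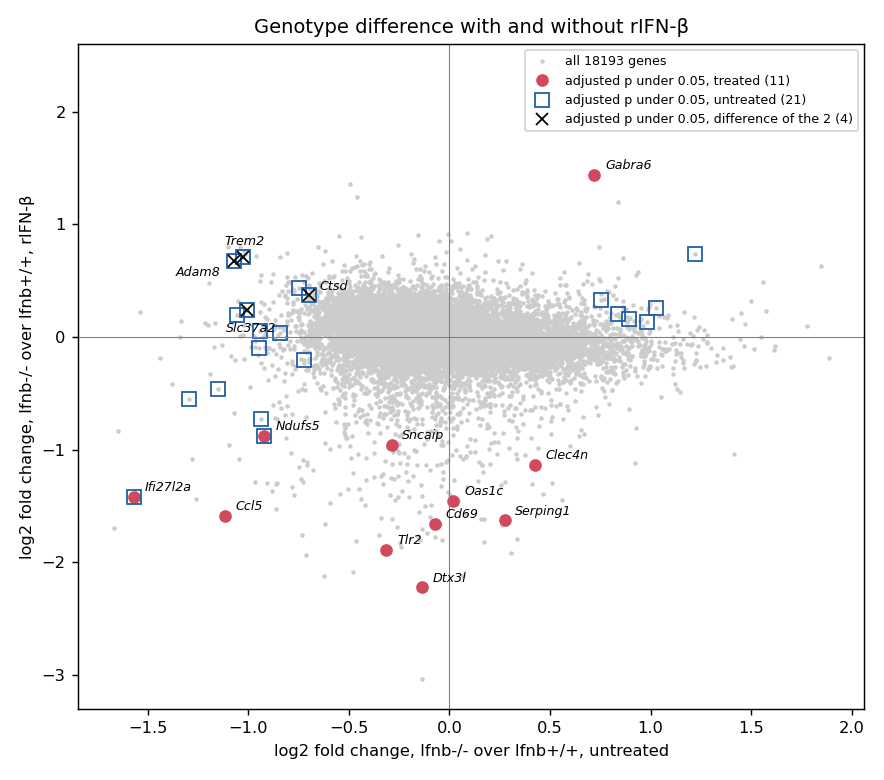
Each point is 1 gene, with the log2 fold change of Ifnb-/- over Ifnb+/+ in untreated cultures on the x axis and in cultures with rIFN-β on the y axis. Ifi27l2a and Ndufs5 lie in the lower left, past the adjusted threshold in both, and Trem2, Adam8, Ctsd and Slc37a2 lie left of 0 and above 0, where the 2 differences have opposite signs.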

How the data were processed

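RNA of 12 CGN cultures, 1 Affymetrix mouse genome array each, was analysed for the 6 arrays with rIFN-β, with the 6 untreated arrays in the same fit. The authors quantile-normalized the arrays with RMA (named in the submitters' processing notes) and deposited log2 intensities of 45037 probe sets. They were used as deposited. The number of arrays limits the precision. The platform annotation named 1 gene for 34945 probe sets, several for 932 and none for 9160. For each of 18193 genes, the brightest of its single-gene probe sets by the mean of the 12 arrays was taken. RefSeq (GRCm38.p6) gave the chromosome of 18032 genes, the promoters and older symbols. The build used by the authors is not given in the sources used here, and array levels need none.

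Groups were fitted as 4 means over all arrays with limma 3.58.1 in R 4.3.3 (8 residual degrees of freedom, empirical Bayes, Benjamini-Hochberg over all genes of a comparison), so that the untreated arrays share in the estimate of spread. A gene passed at an adjusted p under 0.05. The same fit gave the comparison of untreated cultures, the effect of rIFN-β within each genotype and the difference between the 2 genotype differences. The fit was tested on simulated data. The 38 gene lists hold 1056 entries, were described by counts and medians without a test, and were, with the comparison itself, chosen with earlier results of these data known. The rule for named genes took every gene that passed, the 10 largest changes per direction at an unadjusted p under 0.05 with a mean of at least 5 and no overlap, up to 3 members per list by p, a set of pathway and reference genes whatever their values, and genes that passed untreated. The first 2 kinds are all named, and the others in part. Further list members are given for context and were chosen after their values were seen. Alternatives were averaged probe sets, probe sets tested singly, a filter on genes with a mean under 5, repeated quantile normalization, centring, weighted arrays, a robust variance with trend, a fit of the treated arrays alone, a replicate block, the methods' t-test, other thresholds, and each array left out. Differences within like arrays were added after seeing the data.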

Additional observations from a re-analysis of the deposited data

Results flagged for a closer look

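In 4 genes the difference between the genotypes changed with rIFN-β at an adjusted p under 0.05 from limma, tested as the genotype difference with rIFN-β minus that without. The log2 values of this change were 1.73 for Trem2, 1.74 for Adam8, 1.07 for Ctsd and 1.24 for Slc37a2. Slc37a2, which encodes a sugar-phosphate transporter, read 4.05, 4.35 and 4.39 in Ifnb+/+ and 4.39, 4.65 and 4.46 in Ifnb-/- with rIFN-β. Untreated it read 5.46, 5.50 and 5.29 in Ifnb+/+ and 4.40, 4.42 and 4.41 in Ifnb-/-. In the fits that left out 1 array, the number of such genes ran from 0 to 1237. Of the 9160 probe sets for which the annotation names no gene, 1 passed between the treated genotypes at an adjusted p under 0.05 when every probe set was tested, and it was lower in Ifnb-/-. Of the 932 that name several genes 0 passed, with 12 higher and 35 lower by an unadjusted p under 0.05.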

How the results depend on the processing

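No gene among the 11 changed sign under any alternative. For the fits that left out 1 array this was fixed in advance, because the treated arrays of these genes did not overlap. Of the 38 list medians 22 changed sign under at least 1 alternative, all of these 0.21 or less in size, such as cell cycle (-0.33 to 0.27) and Purkinje cell markers (-0.06 to 0.25). The other 16, with the ISG, MHC class I, chemokine and inflammatory lists among them, did not. The counts moved widely. The 11 genes became 23 at an adjusted p under 0.1, 3 of all probe sets, 385 with array weights (whose fit did not converge, so this count is not reliable), and 0 with only the 6 treated arrays. The methods' t-test gave 0 after Benjamini-Hochberg adjustment and 118 genes past 1.5-fold at its unadjusted threshold (24 higher, 94 lower). The 358 genes past 1.5-fold became 652 probe sets, 754 with array weights, and 230 when genes under a mean of 5 were dropped. The 4 genes whose genotype difference changed with rIFN-β became 2 with every probe set, 2 with a mean of at least 5, 2 with repeated quantile normalization and 6294 with array weights. With each of the 12 arrays left out, the counts ran from 0 to 203, from 251 to 712, and from 0 to 1237. The 203 came without Ifnb+/+ array 1 with rIFN-β, the 712 without Ifnb-/- array 2 with rIFN-β and the 1237 without untreated Ifnb+/+ array 2. The 11 became 0 without Ifnb-/- array 1 with rIFN-β, untreated Ifnb+/+ array 3 or untreated Ifnb-/- arrays 1 or 2, 1 without Ifnb+/+ array 2 with rIFN-β or untreated Ifnb-/- array 3, and 2 without Ifnb+/+ array 3 or Ifnb-/- array 3 with rIFN-β. The cause was not tested.

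For treated arrays of the same replicate number, deviations from the group means correlated at 0.43, 0.03 and -0.50 for numbers 1, 2 and 3. Untreated arrays were not compared in this way, so whether the numbers mark a pairing cannot be decided here. With the replicate number as a block, 0 genes passed between the treated genotypes, 382 were past 1.5-fold and 0 changed with rIFN-β. Levels near the lower end of the scale, such as those of Ifnb1, limit what a difference there can show.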

Other observations

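A further 12 genes lay at an adjusted p between 0.05 and 0.1, all lower in Ifnb-/- and all without overlap between the arrays. They are listed here after their values were seen. Clec4e, the C-type lectin Mincle, read 5.32, 4.94 and 5.09 in Ifnb+/+ with rIFN-β and 3.80, 3.43 and 3.78 in Ifnb-/- with rIFN-β, a difference of -1.45 (standard error 0.23, adjusted p = 0.0582). Clec4a3, another lectin of this cluster, differed by -1.80, and Fpr2, a receptor for formylated peptides, by -1.20. Gpr18, a G protein-coupled receptor of leukocytes, differed by -1.02 (adjusted p = 0.0504). Lgals9 and Lgals3bp, which encode galectin-9 and a galectin-binding protein, differed by -1.29 each. Dapk1, a kinase of cell death signaling, read 8.35, 8.95 and 8.90 against 7.88, 7.94 and 7.88, a difference of -0.83. The others were Oas1a, Ccrl2, H2-D1, Rragd and Filip1l.

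The widest difference of all genes, in Lcn2, which encodes the iron-carrier-binding protein lipocalin 2, was -3.03. It read 4.82, 7.33 and 8.79 in Ifnb+/+ and 3.02, 5.70 and 3.11 in Ifnb-/-, so the groups overlapped, and it did not pass (adjusted p = 0.431). Its high arrays were the Ifnb+/+ arrays 2 and 3 and Ifnb-/- array 2. Timp4, an inhibitor of metalloproteases, had the second widest positive difference, 1.36, and overlapped as well (adjusted p = 0.988), with 6.82, 4.25 and 8.14 against 7.20, 8.68 and 7.39.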
